A study of Homo sapiens with 12 samples.

Results

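The sphingolipid genes described here are 36 genes for the enzymes, and the regulators and close paralogues of the enzymes, that make, modify and break down ceramide, sphingomyelin, simple glycosphingolipids and sphingosine 1-phosphate. They were taken by gene symbol from the 60675 gene ids of the count tables, and all 36 symbols were found, each with a single id. The study measured poly(A) RNA in MDA-MB-468 and HCC1187, human cell lines that the labels call basal-like and that are used as models of triple-negative breast cancer, a subtype low in estrogen receptor, progesterone receptor and HER2. Each line was transfected for 48 h with a short hairpin RNA (shRNA) against SOX9-AS1, a long non-coding RNA, or with a hairpin against LacZ, a bacterial gene, as control. MDA-MB-468 was grown in DMEM and HCC1187 in RPMI-1640, both with fetal bovine serum. The 4 groups hold 3 libraries each, 12 in all, named S1 to S3 (MDA-MB-468 control), S4 to S6 (MDA-MB-468 knockdown), S7 to S9 (HCC1187 control) and S10 to S12 (HCC1187 knockdown). Separate cultures are not mentioned in any label, so p-values measure only the spread between these libraries, which may be technical. A single hairpin was used per target, and all libraries come from transfected cells, with no untransfected group.

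Sphingolipids start from serine and a fatty acyl-CoA, which serine palmitoyltransferase joins in the endoplasmic reticulum. Ceramide synthases and a desaturase then make ceramide, the branch point from which cells make sphingomyelin, glycosphingolipids or ceramide phosphate, or which ceramidases cut to sphingosine. Sphingosine kinases make sphingosine 1-phosphate, a signalling lipid that a lyase removes irreversibly, and the balance between ceramide and sphingosine 1-phosphate is widely studied in breast cancer cells for its links to cell death, growth and migration.

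Only lane 1 of each library was used, and these lane totals ran from 6026376 to 10160040 counts, of which the 36 genes took 0.159% to 0.186%. Levels are CPM, counts scaled to a common library total, after TMM, a scaling that balances the bulk of the genes between libraries. Changes are log2 fold changes ± SE from edgeR's quasi-likelihood test, and a gene passed at a Benjamini-Hochberg adjusted p under 0.05 over all genes tested. SOX9-AS1 stood at 2.34, 1.44 and 1.76 CPM in the HCC1187 controls and at 1.12, 0.689 and 0.796 CPM in the knockdown, a log2 fold change of -1.08 ± 0.36 (SE) with an adjusted p of 0.0349, which no longer passed without S7, S9, S11 or S12. The MDA-MB-468 levels were 6.04, 7.24 and 6.52 CPM in the controls against 5.63, 5.06 and 5.51 CPM, with a change of -0.30 ± 0.20 (adjusted p = 0.417; 0.274 without S4, not passing in either fit). Library S4 stood apart within its group: SCD, a fatty acid desaturase, was at 173 to 200 CPM in the controls, 211 CPM in S4, and 2780 and 2860 CPM in S5 and S6. S4 is also the library that the authors' deposited sample table does not list, and with it no member passed in MDA-MB-468. All 12 epithelial and basal-like markers were above 1 CPM in the MDA-MB-468 controls, with a summed level of 12000 to 12300 CPM there and 9480 to 12700 CPM in the knockdown. Without S4 the basal markers KRT5 (-1.02 ± 0.08), KRT6B (-1.37 ± 0.11), KRT14 (-2.54 ± 0.36), KRT16 (-1.44 ± 0.18), KRT17 (-2.46 ± 0.10) and FOXC1 (-1.85 ± 0.14) fell in the same fit as the members, while KRT23 rose (0.40 ± 0.10) and KRT8 did not pass; their part in the members' results was not tested. In the libraries labelled HCC1187 the same sum was 524 to 563 CPM in the controls and 430 to 450 CPM in the knockdown, 5 of the 12 markers were under 1 CPM (KRT5, KRT6B, KRT14, KRT16 and KRT23), and KRT6B had no read. The basal keratins KRT5, KRT6B, KRT14 and KRT16 are thus at or near 0 in the libraries with that label. KRT17 averaged 8.74 CPM in the HCC1187 controls and 618 CPM in the MDA-MB-468 controls. FOXC1 alone of the 12 was higher in the HCC1187 controls, at 185 CPM against 87.3 CPM. HCC1187 below is the name on the label. Of 6 markers of HEK293, an embryonic kidney line, 5 were above 1 CPM in the libraries labelled HCC1187. The sum of the 6 was 547 to 592 CPM in the controls and 297 to 362 CPM in the knockdown, against 15.9 to 29.6 CPM in MDA-MB-468. The marker not above 1 CPM was SOX11, at 0.104 CPM in the HCC1187 controls and 24.9 CPM in the MDA-MB-468 controls. The part of these markers in the results below was not tested.

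A set of 5 genes, for steps of ceramide synthesis and of the glycosphingolipid branch, were lower with the knockdown in both lines, with MDA-MB-468 taken without S4: SPTLC2, DEGS1, UGCG, B4GALT5 and B4GALT6. They were 5 of the 32 members tested in both lines (15.6%), beside 3.41% of the 12421 genes tested in both, and made up 55.6% of the 9 members lower in HCC1187 and 41.7% of the 12 lower in MDA-MB-468. Over all genes, 423 were lower in both, of 1954 lower in HCC1187 and 2885 lower in MDA-MB-468 without S4. No member was higher in both lines, beside 2.38% of genes. With S4 kept, none of the 5 passed in MDA-MB-468; DESeq2 without S4 called SPTLC2, DEGS1 and B4GALT5 there, and in a fit of all 12 libraries UGCG and B4GALT6 did not pass in HCC1187 (adjusted p = 0.113 and 0.108).

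SPTLC2 is the catalytic subunit of serine palmitoyltransferase (chr14:77505997-77616773 in GRCh38, minus strand). It stood at 156, 166 and 159 CPM in the HCC1187 controls and at 105, 125 and 123 CPM in the knockdown, and the groups did not overlap (log2 fold change -0.41 ± 0.09, adjusted p = 0.00137). In MDA-MB-468 the controls were at 67.3, 68.2 and 65.3 CPM, S5 and S6 at 46.3 and 47.9 CPM, and S4 at 65.3 CPM, level with the lowest control. The change there was -0.51 ± 0.10 without S4 (adjusted p = 0.000815) and -0.34 ± 0.14 with it (adjusted p = 0.253).

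DEGS1, the desaturase that turns dihydroceramide into ceramide (chr1:224175756-224193441, plus strand), was at 137, 133 and 124 CPM in the HCC1187 controls and at 84.4, 90.9 and 94.6 CPM in the knockdown. The groups were well apart, with a log2 fold change of -0.51 ± 0.09 (adjusted p = 0.000148). Its MDA-MB-468 levels were 141, 125 and 130 CPM in the controls, 102 and 109 CPM in S5 and S6, and 128 CPM in S4, inside the control range. Without S4 the change was -0.33 ± 0.09 (adjusted p = 0.00916; 0.11 without S5 as well), and with it -0.23 ± 0.12 (adjusted p = 0.303).

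UGCG makes glucosylceramide, the first glycosphingolipid of most cells (chr9:111896766-111935369, plus strand). Its HCC1187 levels were 47.7, 64.9 and 62.5 CPM in the controls and 37.5, 48.5 and 48 CPM in the knockdown. The groups overlapped, since the lowest control, S7, lay below S11 and S12, and the change of -0.35 ± 0.12 (adjusted p = 0.0342) no longer passed without S8 (0.163), S9 (0.14) or S10 (0.0961). The MDA-MB-468 controls were at 61.1, 61.5 and 52.6 CPM and S4, S5 and S6 at 49.9, 45.5 and 48.2 CPM. Here S4 lay with the other knockdown libraries and the groups did not overlap, yet the change of -0.30 ± 0.11 did not pass in the fit of all 6 libraries (adjusted p = 0.229); without S4 it was -0.32 ± 0.11 (adjusted p = 0.0267, and not passing without any one of S1, S2, S5 and S6, at 0.0822 to 0.187).

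B4GALT5 and B4GALT6 add galactose to glucosylceramide and so make lactosylceramide. B4GALT5 (chr20:49632945-49713878, minus strand) was at 98.2, 93.4 and 94.9 CPM in the HCC1187 controls and at 61.1, 70.7 and 69.2 CPM in the knockdown, with a change of -0.48 ± 0.09 (adjusted p = 0.000435). Its MDA-MB-468 controls were at 153, 155 and 190 CPM, with S5 and S6 below them at 129 and 134 CPM and S4 at 189 CPM, close to the highest control. The change there was -0.34 ± 0.10 without S4 (adjusted p = 0.0162, but 0.144 without S5 and 0.0804 without S6) and -0.15 ± 0.16 with it (adjusted p = 0.623).

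B4GALT6 (chr18:31622247-31685836, minus strand) was at 40.1, 44.4 and 34.8 CPM in the HCC1187 controls and at 21.5, 34.6 and 30.7 CPM in the knockdown. S9 and S11 all but met, and the change of -0.42 ± 0.13 (adjusted p = 0.0246) did not pass without S7 (0.0574), S8 (0.111) or S10 (0.0873). The gene was much lower in MDA-MB-468, at 5.37, 6.01 and 6.13 CPM in the controls, 4.67 CPM in S4, and 3.51 and 3.52 CPM in S5 and S6. All 3 knockdown libraries lay below the controls, with a change of -0.73 ± 0.25 without S4 (adjusted p = 0.029; 0.0774 to 0.139 without S2, S5 or S6) and -0.59 ± 0.23 with it (adjusted p = 0.229).

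The sequences just before the start sites of these genes, B4GALT6 excepted, are shown. The genes were picked for being called lower in both lines, with MDA-MB-468 taken without S4. They come from the RefSeq promoter table (GRCh38.p14), which held 28 of the 36 members, are cut to the bases that lie in no exon of the gene in GENCODE v29, and are written 5′ to 3′ on the gene's strand, with CCAAT and GGGCGG (the GC box) in capitals on either strand.
SPTLC2: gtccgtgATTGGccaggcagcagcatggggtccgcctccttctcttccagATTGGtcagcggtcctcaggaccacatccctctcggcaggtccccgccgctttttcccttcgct
DEGS1: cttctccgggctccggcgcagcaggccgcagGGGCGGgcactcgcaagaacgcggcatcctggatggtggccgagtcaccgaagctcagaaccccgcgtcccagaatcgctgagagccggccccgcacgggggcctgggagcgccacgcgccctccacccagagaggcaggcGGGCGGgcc
UGCG: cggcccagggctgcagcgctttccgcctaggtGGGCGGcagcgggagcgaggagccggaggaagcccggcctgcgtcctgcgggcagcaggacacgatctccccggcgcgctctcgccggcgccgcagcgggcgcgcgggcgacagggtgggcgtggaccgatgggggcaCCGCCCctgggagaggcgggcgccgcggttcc
B4GALT5: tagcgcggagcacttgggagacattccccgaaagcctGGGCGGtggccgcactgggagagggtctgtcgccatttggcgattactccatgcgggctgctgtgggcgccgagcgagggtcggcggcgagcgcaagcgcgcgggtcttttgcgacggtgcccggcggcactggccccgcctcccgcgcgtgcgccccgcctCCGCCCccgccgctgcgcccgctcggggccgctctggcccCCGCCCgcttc
For DEGS1 the RefSeq start lies inside the gene as GENCODE draws it. The stretches span chr14:77616774-77616887 for SPTLC2, chr1:224182990-224183170 for DEGS1, chr9:111896564-111896765 for UGCG and chr20:49713879-49714128 for B4GALT5. The SPTLC2 stretch holds 2 CCAAT boxes, both read on the opposite strand, and no GC box, while those of DEGS1, UGCG and B4GALT5 hold 2, 2 and 3 GC boxes and no CCAAT. The stretches differ in length, at 114, 181, 202 and 250 bases in that order. In its full 250 bases SPTLC2 has a GC box too. In the full 250 bases before the start, 22 of the 28 members had a GC box, beside 42.6% of 35116 promoters, and 6 had a CCAAT box, beside 32%. The E-box CACGTG was found in 1 member, UGT8, beside 6.34% of promoters. These matches are a description of the letters and no test of binding.

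**Figure D1:**
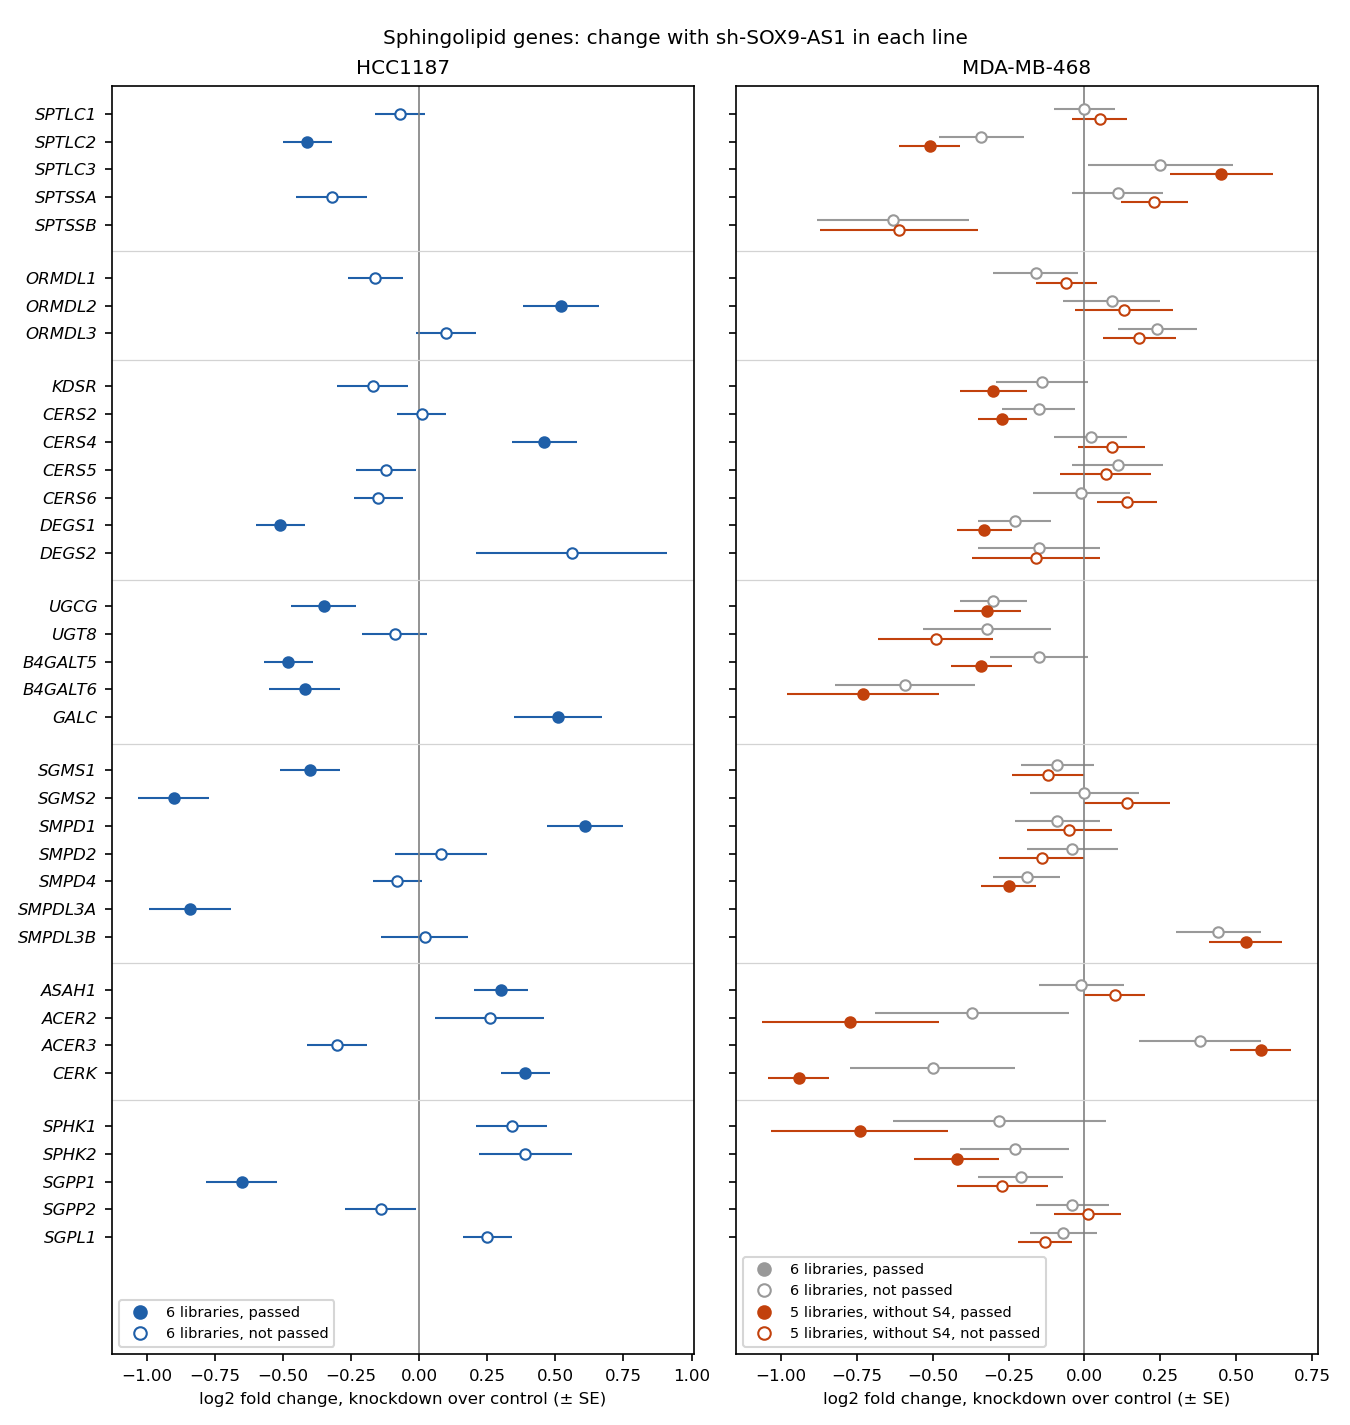
The log2 fold change of each gene with the knockdown (x axis, ± SE) is drawn by role from serine palmitoyltransferase (top) to the sphingosine 1-phosphate enzymes (bottom), with HCC1187 on the left and MDA-MB-468 with and without S4 on the right; filled points passed at an adjusted p under 0.05. In HCC1187, 6 points are filled to the right of 0 and 9 to the left; in MDA-MB-468 no grey point is filled, and 3 and 12 of the orange ones are.

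In HCC1187 the members went both ways with the knockdown. Of 34 members tested, 6 were higher and 9 lower, and 19 did not pass; the 44.1% called compare with 22.8% of the 14970 genes tested (9.78% higher, 13.1% lower), and the median log2 fold change was -0.08 beside 0.01 for all genes. Lower were the plasma membrane and Golgi sphingomyelin synthases, the glucosylceramide and lactosylceramide synthases, SPTLC2, DEGS1, SMPDL3A and SGPP1, and higher were acid sphingomyelinase, acid ceramidase, galactosylceramidase, ceramide kinase, CERS4 and ORMDL2. In bulk RNA, fewer cells with a transcript and less of it per cell cannot be told apart. Scaling by library totals moved the share of higher calls over all genes from 42.8% to 57.7% and the members to 8 higher and 8 lower. SPTLC3 and SPTSSB were too low to test.

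On the sphingomyelin branch 4 of 7 members passed. SGMS2, a sphingomyelin synthase of the plasma membrane (chr4:107824563-107915047), was at 32.3, 46.4 and 44.4 CPM in the controls and at 18.1, 24 and 22 CPM in the knockdown. Every knockdown library was below every control, and the change of -0.90 ± 0.13 (a 1.87-fold fall, adjusted p = 3.7e-05) had the smallest p of the members. SGMS1, the Golgi enzyme, stood at 28.3, 28.1 and 25.8 CPM and then 19.7, 21.1 and 20.3 CPM (-0.40 ± 0.11, adjusted p = 0.0142; 0.0562 to 0.0585 without S7, S8 or S12).

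Both synthases that make sphingomyelin from ceramide were lower, while the lysosomal enzyme that cuts it was higher. SMPD1, acid sphingomyelinase, rose from 13.5, 11.4 and 11.8 CPM to 20.2, 17.2 and 17.7 CPM, with no overlap (0.61 ± 0.14, adjusted p = 0.00245). SMPDL3A, a paralogue of SMPD1 that acts on nucleotides (chr6:122789049-122809720), fell from 12.8, 14.5 and 14.8 CPM to 6.88, 7.58 and 8.32 CPM (-0.84 ± 0.15, adjusted p = 0.000335). Its groups were apart, with 12.8 CPM as the lowest control and 8.32 CPM as the highest knockdown library. The neutral sphingomyelinases SMPD2 (0.08 ± 0.17) and SMPD4 (-0.08 ± 0.09) and the raft protein SMPDL3B (0.02 ± 0.16) did not pass, with adjusted p from 0.566 to 0.938.

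Among the ceramidases and ceramide kinase, 2 of 4 passed, both higher. CERK, which makes ceramide 1-phosphate (chr22:46684411-46738261), was at 96.4, 88.5 and 80.8 CPM in the controls and at 114, 112 and 115 CPM in the knockdown. The knockdown libraries were close to each other and all above the controls (0.39 ± 0.09, adjusted p = 0.00299; 0.248 in a fit of all 12 libraries). ASAH1, the lysosomal acid ceramidase, was at 34, 36.1 and 31.6 CPM and then at 37.6, 40.1 and 44.2 CPM; the rise of 0.30 ± 0.10 (adjusted p = 0.0398) passed only narrowly and was lost without any one library but S10, at 0.0597 to 0.178. ACER3, an alkaline ceramidase, stood at 30.9 to 31.1 CPM in the controls and 21.5 to 26.6 CPM in the knockdown, groups that did not overlap, and a change of -0.30 ± 0.11 (adjusted p = 0.0546) short of the threshold, and ACER2, the Golgi alkaline ceramidase, had 0.26 ± 0.20 (adjusted p = 0.362).

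Of the sphingosine 1-phosphate enzymes 1 of 5 passed. SGPP1, a phosphatase that returns sphingosine 1-phosphate to sphingosine, fell from 32.6, 46.8 and 35.1 CPM to 24.9, 25.1 and 21.5 CPM (-0.65 ± 0.13, adjusted p = 0.000918). The knockdown libraries lay below all controls, of which S8 was the highest. The other phosphatase, SGPP2, had -0.14 ± 0.13 (adjusted p = 0.458). SGPL1, the lyase that ends the pathway, stood at 72.1, 70.2 and 64.1 CPM and then 82.6, 80 and 77.6 CPM, apart but just short of the threshold (0.25 ± 0.09, adjusted p = 0.0505). The kinases SPHK1 (0.34 ± 0.13, adjusted p = 0.0678) and SPHK2 (0.39 ± 0.17, adjusted p = 0.107) did not pass, and the groups of each overlapped.

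In the de novo branch, beside SPTLC2 and DEGS1, 2 genes passed, both higher. CERS4, one of the ceramide synthases, rose from 23.4, 22.2 and 26.1 CPM to 34.7, 28.1 and 33.4 CPM, without overlap (0.46 ± 0.12, adjusted p = 0.0065). ORMDL2, one of 3 ORMDL proteins that hold serine palmitoyltransferase back when ceramide is plentiful, was at 18.4, 14.8 and 12.6 CPM and then at 22.2, 21 and 21.3 CPM (0.52 ± 0.14, adjusted p = 0.00888; 0.0669 without S9). In GENCODE v29, 46.4% of the exon bases of ORMDL2 lie over exons of genes on the opposite strand, DNAJC14 among them; no source used here says whether the counting used strand, so reads of such overlapping genes cannot be told apart. The remaining ORMDL genes did not pass, at -0.16 ± 0.10 for ORMDL1 and 0.10 ± 0.11 for ORMDL3.

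The members include 4 ceramide synthases, and the 3 besides CERS4 did not pass in HCC1187. CERS2, which makes very-long-chain ceramides and was the most abundant member by CPM, had 0.01 ± 0.09 (adjusted p = 0.975), CERS5 -0.12 ± 0.11 (0.473) and CERS6 -0.15 ± 0.09 (0.236). Opposite-strand exons cover 37.2% of CERS2 and 41.4% of CERS6. The non-catalytic subunit SPTLC1 (-0.07 ± 0.09), the small activating subunit SPTSSA (-0.32 ± 0.13, adjusted p = 0.087), the reductase KDSR (-0.17 ± 0.13) and the other desaturase DEGS2 (0.56 ± 0.35) did not pass either.

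On the galactosylceramide side, GALC, the lysosomal enzyme that breaks galactosylceramide down, rose from 7.23, 8.17 and 6.95 CPM to 10.3, 9.65 and 11.1 CPM (0.51 ± 0.16, adjusted p = 0.0222). The groups did not overlap, but the call was lost without S7 (0.0734), S9 (0.0758) or S12 (0.0922). UGT8, which makes galactosylceramide, had -0.09 ± 0.12 (adjusted p = 0.606). Of the 15 calls in HCC1187, 9 passed whichever single library was left out: SPTLC2, CERS4, DEGS1, B4GALT5, SGMS2, SMPD1, SMPDL3A, CERK and SGPP1.

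**Figure D2:**
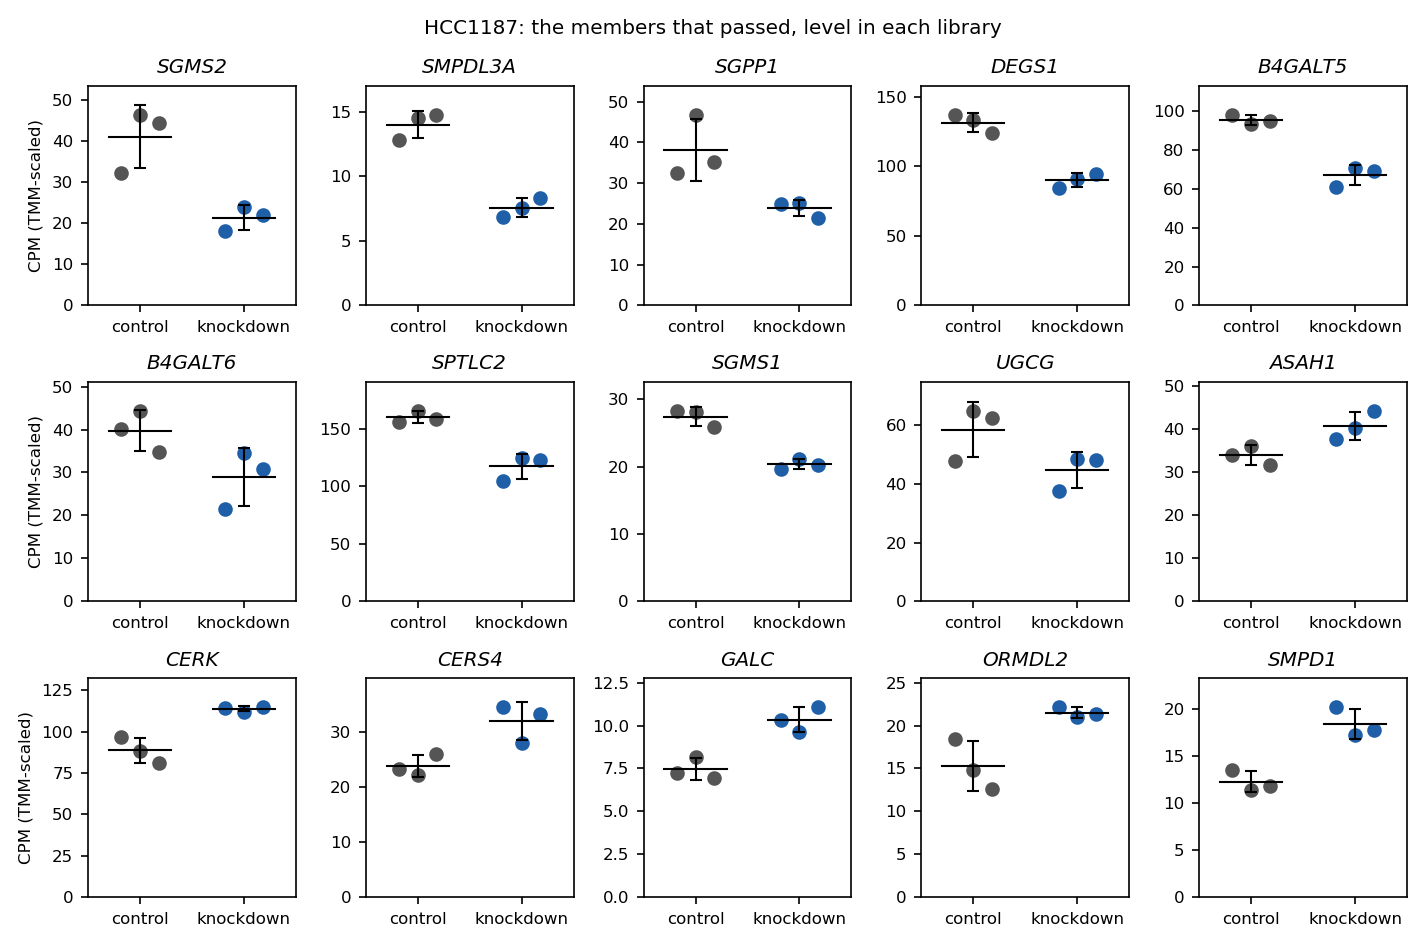
Each panel shows the TMM-scaled CPM (y axis, from 0) of a gene in the 3 control (grey) and 3 knockdown (blue) libraries labelled HCC1187, with the mean and SD in black, ordered from the largest fall to the largest rise. The control and knockdown points are apart in every panel but that of UGCG. Only members that passed the test are drawn, so such separation is largely set by the choice. ACER3, SGPL1, CERS6 and UGT8, which did not pass, were apart as well, and such separation was not counted over all genes.

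In MDA-MB-468, with all 6 libraries, none of the 34 members tested passed edgeR's quasi-likelihood test, as for all but 1 of 13638 genes (0.00733% called). At an unadjusted p under 0.05, 5 members stood out (SMPDL3B higher, SPTSSB, UGCG, SPTLC2 and B4GALT6 lower), which is 14.7% of the members beside 18.7% of all genes, and DESeq2 also called 0. Without S4, 3 members were higher and 12 lower. That is 44.1% beside 40.7% of the 13947 genes tested (20% higher, 20.7% lower), a share near the background, and the median log2 fold change was -0.14 beside 0 for all genes. S4 was nearer the mean of the controls than that of S5 and S6 for 14 of these 15 genes, and inside the control range for 5. The 15 genes were picked by the fit without S4, which favours genes where S5 and S6 lie far from the controls. These counts therefore partly follow from the choice, and they were not made over all genes. GALC and SMPDL3A had no lane 1 read in any MDA-MB-468 library and were not tested.

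CERK had the smallest adjusted p without S4. It was at 128, 126 and 149 CPM in the controls, 74.4 and 66.3 CPM in S5 and S6, and 147 CPM in S4. The 2 knockdown libraries lay far below all controls and S4 lay among them, so that the change was -0.94 ± 0.10 without S4 (a 1.92-fold fall, adjusted p = 5.17e-06) and -0.50 ± 0.27 with it (adjusted p = 0.329). ACER3, the alkaline ceramidase, rose, from 97.4, 91 and 78.3 CPM to 126 and 142 CPM, with S4 at 81.9 CPM, again among the controls (0.58 ± 0.10 without S4, adjusted p = 0.000407; 0.38 ± 0.20 with it, adjusted p = 0.317).

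SMPDL3B, a raft-bound paralogue of acid sphingomyelinase, was at 26.6, 26.5 and 25.8 CPM in the controls, 36 and 40.4 CPM in S5 and S6, and 30.9 CPM in S4. Here all 3 knockdown libraries were above the controls, with S4 between the others; the change was 0.53 ± 0.12 without S4 (adjusted p = 0.00237) and 0.44 ± 0.14 with it (adjusted p = 0.207). CERK, ACER3, SMPDL3B and SPTLC2 passed without S4 and any one further library; where S5 or S6 is left out as well, the lone knockdown library is assumed to vary like the others.

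Both sphingosine kinases were lower without S4. SPHK1 stood at 4.48, 5.47 and 4.73 CPM in the controls, 3.51 and 2.3 CPM in S5 and S6, and 6.44 CPM in S4, above every control (-0.74 ± 0.29 without S4, adjusted p = 0.0497; -0.28 ± 0.35 with it, 0.672). SPHK2 stood at 21.2, 22.7 and 20.6 CPM, 17.3 and 14.9 CPM, and 23.3 CPM in S4 (-0.42 ± 0.14, adjusted p = 0.0299; -0.23 ± 0.18 with S4, 0.485); 22.3% of its exon bases lie over opposite-strand exons. Neither passed without S1, S2, S5 or S6, with adjusted p from 0.0536 to 0.338. ACER2 was likewise low, at 4.14, 4.65 and 3.96 CPM, 2.53 and 2.45 CPM, and 4.99 CPM in S4 (-0.77 ± 0.29, adjusted p = 0.0437; -0.37 ± 0.32 with S4, 0.517; 0.0709 to 0.173 without S1, S2, S5 or S6).

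Further members passed with small changes. KDSR had -0.30 ± 0.11 (adjusted p = 0.0365), CERS2 -0.27 ± 0.08 (0.0153) and SMPD4 -0.25 ± 0.09 (0.0362), all without S4. With S4 the values were -0.14 ± 0.15, -0.15 ± 0.12 and -0.19 ± 0.11 (adjusted p = 0.591, 0.486 and 0.352). SPTLC3, an alternative catalytic subunit of serine palmitoyltransferase, had 0.45 ± 0.17 (adjusted p = 0.0457), and 0.25 ± 0.24 with S4 (0.554). Its levels were 13.8, 10.9 and 10.2 CPM in the controls, 17 and 15.2 CPM in S5 and S6, and 9.65 CPM in S4, below every control. Each of these 4 calls was lost without at least 2 further single libraries. Without S4, SPTLC2 was lower while SPTLC3 was higher, and SPTLC1 had 0.05 ± 0.09 (adjusted p = 0.713). The sphingomyelin synthases, lower in HCC1187, did not pass here, at -0.12 ± 0.12 for SGMS1 and 0.14 ± 0.14 for SGMS2, nor did SMPD1 (-0.05 ± 0.14), ASAH1 (0.10 ± 0.10), CERS4 (0.09 ± 0.11) or SGPP1 (-0.27 ± 0.15, adjusted p = 0.15).

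**Figure D3:**
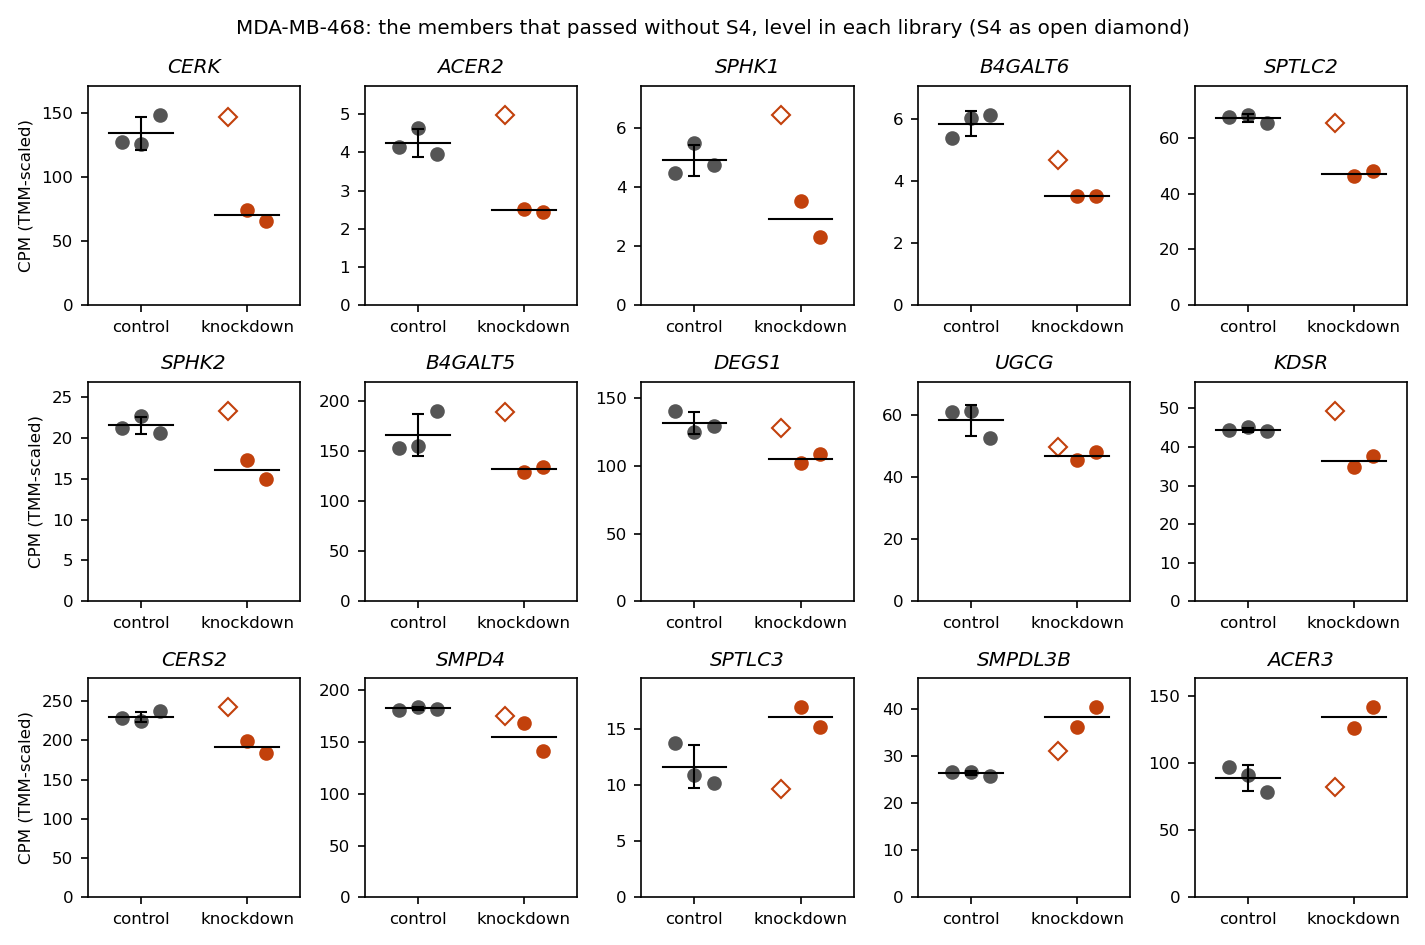
Each panel shows the TMM-scaled CPM (y axis, from 0) of a gene that passed without S4 in MDA-MB-468, for the 3 controls (grey, mean and SD in black) and the knockdown libraries S5 and S6 (filled, mean in black) and S4 (open diamond). For CERK, S4 is at 147 CPM among the controls, and for SMPDL3B at 30.9 CPM between the controls and the other knockdown libraries.

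Whether the change differed between the lines was tested by the interaction of line and knockdown, given as the MDA-MB-468 change minus the HCC1187 change. With all 12 libraries, edgeR called none of the 36 members (3.75% of 16328 genes called, 2.52% higher and 1.24% lower); 7 had an unadjusted p under 0.05, which is 19.4% beside 20.6% of all genes, and DESeq2 called SGMS2 and SMPD1. The smallest adjusted p were those of SGMS2 (0.054) and SMPD1 (0.0562). Without S4, 9 members passed, 3 with a higher and 6 with a lower value in MDA-MB-468, which is 25% beside 25.6% of 16807 genes (13.2% higher and 12.4% lower). Library totals as scaling moved the share of higher calls over all genes from 67% to 53.1% with S4 and from 51.4% to 40.8% without it.

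CERK had the clearest difference, higher with the knockdown in HCC1187 and lower in MDA-MB-468 without S4 (difference -1.33 ± 0.14, adjusted p = 5.35e-08; -0.90 ± 0.29 with S4, adjusted p = 0.0927). ACER3 differed the other way (0.88 ± 0.15, adjusted p = 8.73e-05; 0.118 with S4), as did SGMS2, which fell in HCC1187 and did not pass in MDA-MB-468 (1.04 ± 0.21, adjusted p = 0.000454). Both sphingosine kinases and the lyase, none of which passed in HCC1187, had lower values in MDA-MB-468, with differences of -1.08 ± 0.32 for SPHK1 (adjusted p = 0.0137), -0.81 ± 0.23 for SPHK2 (0.0094) and -0.38 ± 0.13 for SGPL1 (0.0306). The other 3 were SMPD1 (-0.66 ± 0.20, adjusted p = 0.0154), ACER2 (-1.03 ± 0.35, 0.0289) and SPTSSA (0.54 ± 0.19, 0.0348). For the 5 genes lower in both lines the difference did not pass, from -0.31 ± 0.30 for B4GALT6 to 0.18 ± 0.12 for DEGS1, with adjusted p of 0.309 or more. These genes were picked for falling in both lines of the same libraries, so this outcome largely follows from the choice.

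**Figure D4:**
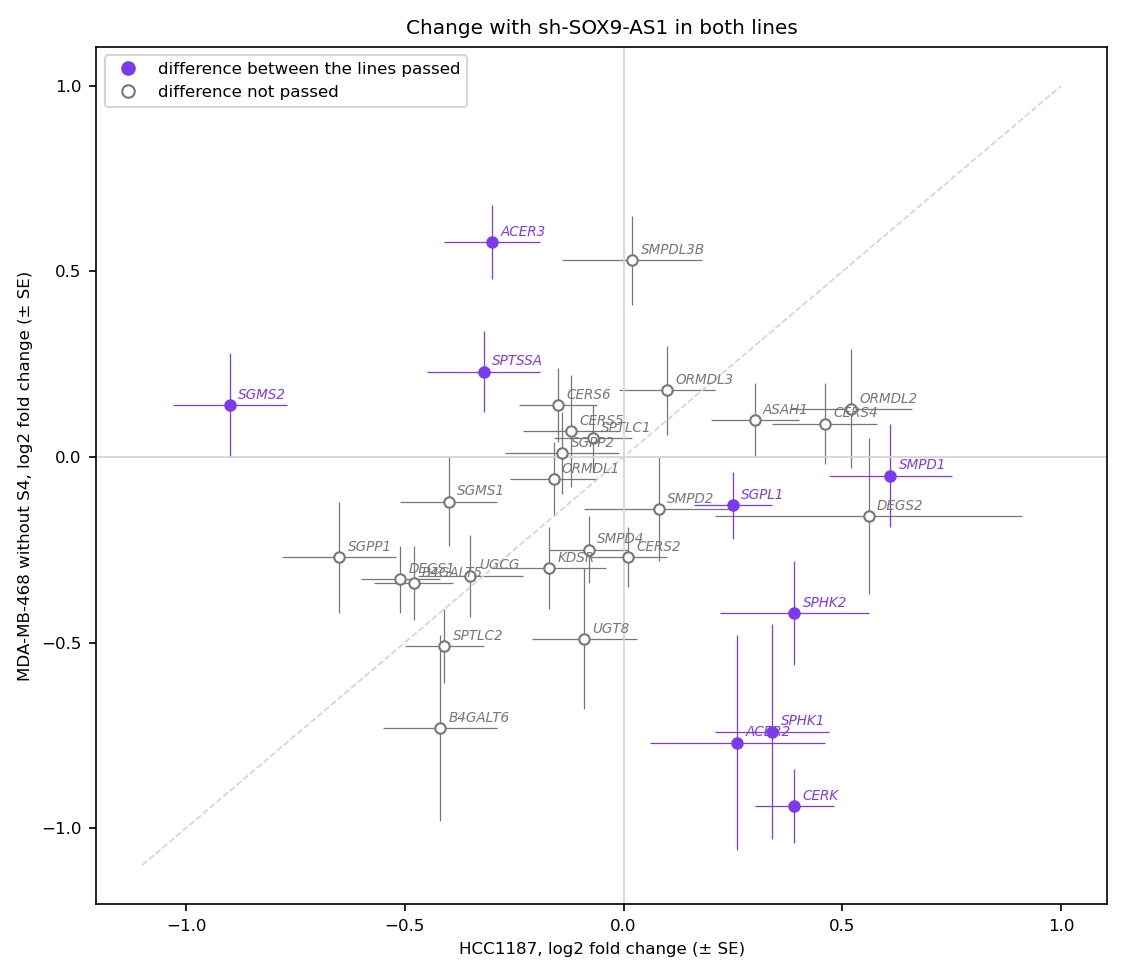
The log2 fold change with the knockdown in HCC1187 (x axis) is plotted against that in MDA-MB-468 without S4 (y axis), each ± SE, for the 32 members tested in both lines; purple points passed the test of the difference between the lines. CERK, SPHK1, SPHK2 and ACER2 lie at the lower right, ACER3 and SGMS2 at the upper left, and SPTLC2, DEGS1, UGCG, B4GALT5 and B4GALT6 at the lower left in grey.

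The control libraries of the lines differed for most members. Of 36 tested, 19 were higher and 12 lower in MDA-MB-468, which is 86.1% beside 84.1% of 15592 genes (40.4% higher and 43.6% lower), a share near the background; the median log2 difference was 0.33 beside -0.06 for all genes. Line, medium and count table go together in this design and cannot be told apart. The ceramidases ASAH1 and ACER3 were among the genes higher in MDA-MB-468, and the lactosylceramide synthase B4GALT6 and the kinase SPHK1 among those lower.

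In lane 1, the only lane used, 3 members had no read in 1 of the lines. SPTLC3 was at 11.8 CPM over the MDA-MB-468 controls and had 0 reads in all 6 HCC1187 libraries, which is at least 113-fold higher against a floor of 3 counts over the 3 controls. SMPDL3A (14 CPM) and GALC (7.43 CPM) were measured in the HCC1187 controls and had 0 reads in all 6 MDA-MB-468 libraries, at least 112-fold and 59.6-fold higher in HCC1187. These floors cover counting error in lane 1 only, and reads in the unused lanes were not looked at.

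The other subunits of serine palmitoyltransferase also differed. SPTSSB, the other small subunit, was at 9.74, 7.79 and 5.49 CPM in MDA-MB-468 and at 0.488, 0.663 and 0.519 CPM in HCC1187 (log2 difference 3.78 ± 0.32, adjusted p = 4.34e-10), while SPTLC2 was lower in MDA-MB-468 (-1.25 ± 0.08, adjusted p = 1.29e-12) and SPTLC1 slightly so (-0.37 ± 0.08). MDA-MB-468 thus held reads of both catalytic subunits and both small subunits, and HCC1187 held SPTLC2 with 0 reads of SPTLC3. ORMDL1 was higher (0.55 ± 0.09) and ORMDL3 lower (-0.74 ± 0.10) in MDA-MB-468, and ORMDL2 did not pass (0.11 ± 0.16, adjusted p = 0.515).

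Some paralogues went opposite ways between the lines, as SPTLC2 and SPTLC3 or ORMDL1 and ORMDL3 did above, and 4 such pairs are given here. Opposite pairs were not counted over all genes, of which 40.4% were higher and 43.6% lower in MDA-MB-468. B4GALT5 was higher (0.81 ± 0.09) and B4GALT6 lower (-2.76 ± 0.14, adjusted p = 7.25e-14) in MDA-MB-468, SPHK2 higher (1.53 ± 0.14) and SPHK1 lower (-2.18 ± 0.16, adjusted p = 2.18e-11), SGPP2 higher (1.14 ± 0.11) and SGPP1 lower (-1.01 ± 0.13), and SGMS1 higher (0.45 ± 0.10; adjusted p = 0.0589 with library totals as scaling) and SGMS2 lower (-0.97 ± 0.13). Per kilobase of gene length, B4GALT5 stood at 35.2 ± 4.45 CPM in MDA-MB-468 (SD, n = 3) and B4GALT6 at 1.10 ± 0.077, against 20.2 ± 0.524 and 7.49 ± 0.909 in HCC1187. B4GALT5 was thus the higher of the pair in both lines. On the same scale SPHK2 was above SPHK1 in MDA-MB-468 (3.57 ± 0.181 and 1.11 ± 0.116) and below it in HCC1187 (1.24 ± 0.125 and 5.03 ± 0.285), so the order of the kinases was reversed.

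ASAH1 was at 116, 119 and 102 CPM in MDA-MB-468 and at 34, 36.1 and 31.6 CPM in HCC1187 (1.74 ± 0.09, adjusted p = 1.04e-13), and ACER3 was higher as well (1.53 ± 0.10). DEGS2, the desaturase that also hydroxylates (2.74 ± 0.25), SMPD2 (1.42 ± 0.14, with 20.3% of its exon bases over opposite-strand exons) and SMPDL3B (1.30 ± 0.13) were higher too, and UGT8 (-0.85 ± 0.14), CERS5 (-0.58 ± 0.12) and CERS6 (-0.40 ± 0.08) lower. Higher by smaller amounts were SMPD1 (0.71), CERS4 (0.76), CERK (0.61), SMPD4 (0.53), KDSR (0.48) and CERS2 (0.44). SGPL1 was narrowly higher (0.22 ± 0.08, adjusted p = 0.0159), but not without S9 (0.068), and its difference was -0.01 (adjusted p = 0.913) with library totals as scaling, which moved the median of all genes from -0.06 to -0.29.

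DEGS1 was the highest member per kilobase in both lines, at 53.9 ± 3.39 CPM in MDA-MB-468 and 53.7 ± 2.62 in HCC1187, with CERS2 next at 49.5 ± 1.4 and 36.8 ± 2.73. This order rests on the deposited gene length. By CPM alone CERS2 was above DEGS1, at 230 against 132 in the MDA-MB-468 controls and 171 against 131 in the HCC1187 controls. The difference of DEGS1 between the lines did not pass (0.02 ± 0.08, adjusted p = 0.824), nor did those of UGCG (0.02 ± 0.11), SPTSSA (0.19 ± 0.12), ORMDL2 and ACER2 (-0.31 ± 0.22). With library totals as scaling 17 members were higher and 14 lower in MDA-MB-468, and DEGS1 and ACER2 passed as lower.

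**Figure D5:**
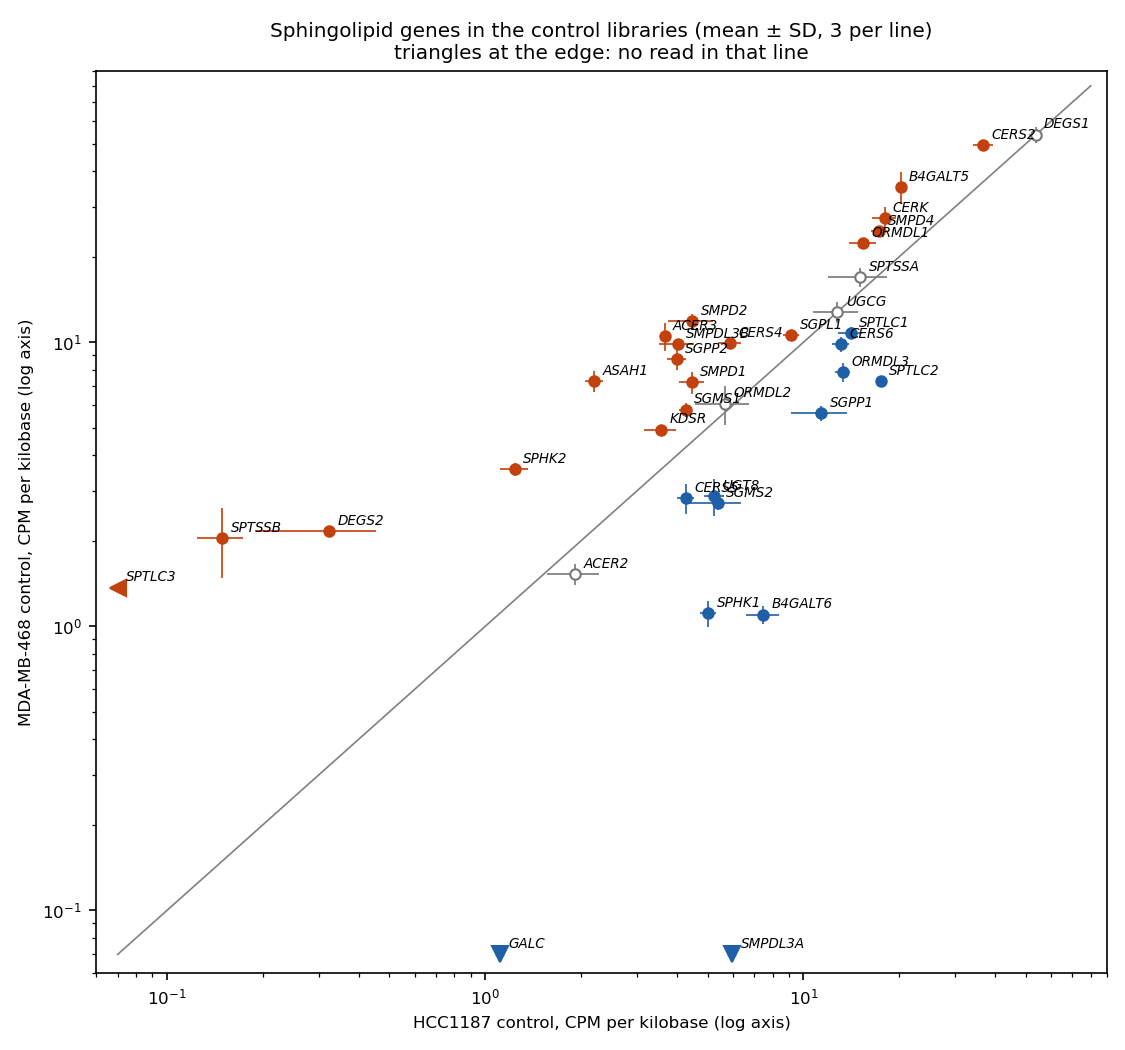
Mean CPM per kilobase of gene length in the control libraries of HCC1187 (x axis) and MDA-MB-468 (y axis), both log axes, with SD bars over 3 libraries; orange genes are higher and blue ones lower in MDA-MB-468, and open grey ones did not pass. SPTLC3 is drawn at the left edge and GALC and SMPDL3A at the lower edge because they had no read in that line, and DEGS1 lies on the line of equal levels.

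Beyond the 36 genes, a list of 74 other sphingolipid genes was followed. In HCC1187 7 of the 62 tested were higher and 16 lower (37.1%, beside 22.8% of all genes, 9.78% higher and 13.1% lower), and the group for ceramide and sphingolipid transfer stood at 0 higher and 5 lower of 7. PLEKHA8, which carries glucosylceramide through the Golgi, had -0.88 ± 0.11 (adjusted p = 2.77e-06). RTN4, an endoplasmic reticulum protein that binds serine palmitoyltransferase, was at 162, 168 and 182 CPM and then at 82.2, 98.2 and 96.1 CPM (-0.86 ± 0.09, adjusted p = 4.19e-07), and SAMD8, a relative of the sphingomyelin synthases, had -0.76 ± 0.11 (adjusted p = 1.86e-05). The higher genes were led by SUMF1, which activates lysosomal sulfatases, at 2.44, 2.32 and 2.7 CPM and then at 6.04, 6.34 and 4.96 CPM (1.22 ± 0.22, adjusted p = 0.000389), and ST3GAL2, a ganglioside sialyltransferase (0.37 ± 0.10, adjusted p = 0.00927; lost without S8).

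In MDA-MB-468 none of the 63 genes of that list passed with all 6 libraries, and without S4 9 were higher and 14 lower (36.5%, below the 40.7% of all genes). ABCA12, a glucosylceramide transporter, was at 23.4, 24 and 23.6 CPM in the controls, 55.2 and 58.4 CPM in S5 and S6, and 23.5 CPM in S4, within the controls (1.25 ± 0.11 without S4, adjusted p = 5.12e-07; 0.94 ± 0.30 with it, 0.207). ARSA, the lysosomal arylsulfatase that acts on sulfatide, had 1.26 ± 0.13 (adjusted p = 2.88e-06) and ELOVL5, a fatty acid elongase, 0.67 ± 0.08 (adjusted p = 2.33e-05). Lower were S1PR3, a receptor of sphingosine 1-phosphate (-0.98 ± 0.14, adjusted p = 4.8e-05), SPNS2, its exporter (-0.62 ± 0.11, adjusted p = 0.000316), and VAPB, an endoplasmic reticulum anchor of lipid transfer proteins (-0.61 ± 0.10, adjusted p = 0.00015). With S4 the values were 0.97 for ARSA, 0.42 for ELOVL5, -0.36 for S1PR3, -0.28 for SPNS2 and -0.47 for VAPB, with adjusted p from 0.205 to 0.556. VAPB was lower in HCC1187 as well (-0.62 ± 0.09, adjusted p = 4.01e-05).

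The difference between the lines passed with all 12 libraries for 5 of 69 genes of the list (7.25%, beside 3.75% of all genes), 4 higher and 1 lower in MDA-MB-468. Without S4, 13 were higher and 8 lower (30.4%, beside 25.6%). PLEKHA8 had a difference of 1.25 ± 0.20 (adjusted p = 0.00432), RTN4 0.84 ± 0.17 (0.0155; lost without S9 or S10) and GLA, the lysosomal alpha-galactosidase, 0.65 ± 0.14 (0.0236; lost without S1, S2, S3, S7, S9, S10 or S11). SUMF1 had -1.33 ± 0.23 (adjusted p = 0.00775). PLEKHA8 and SUMF1 kept their calls without any one library, and without S4 the differences were 1.38 for PLEKHA8, 0.93 for RTN4, 0.57 for GLA and -1.30 for SUMF1, all passing. In the controls 34 of 67 genes were higher and 24 lower in MDA-MB-468 (86.6%, near the 84.1% of all genes), among them CTSD, a lysosomal protease (2.56 ± 0.08), PLPP2, a lipid phosphatase, at 102 to 113 CPM against 1, 1 and 2 reads, and SPNS2, at 117, 131 and 132 CPM against 1.27, 1.55 and 1.04 CPM. Lower there were HACD3, a fatty acid dehydratase (-1.82 ± 0.07), GLA (-1.72 ± 0.08) and B4GALNT1, a ganglioside synthase, at 0.112, 0 and 0.256 CPM in MDA-MB-468 against 32.7 to 36.4 CPM in HCC1187.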

How the data were processed

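Gene counts were those the authors deposited, 60675 gene ids per line, raw and per lane. Per the submitters' processing notes, featureCounts 2.0.0, HISAT2 2.1.0, Trimmomatic 0.39, FastQC 0.11.9, MultiQC 1.11 and SAMtools were used, with GRCh38; per the labels' protocols, libraries came from a stranded mRNA kit. Annotation release and strand setting were not given in the sources used here. Column names give a group, library number and lane, but do not tie the library to a labelled sample. As a choice, no more columns than labelled samples were used per group: lane 1 of each library entered, lanes were not summed, and 24 count columns were not used. Knockdown columns carry the word BLANCO, which the sample descriptions tie to sh-SOX9-AS1.

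Each comparison was fitted on all genes with edgeR 4.0.16 (R 4.3.3) and its quasi-likelihood test (filterByExpr, minimum count 10, total 15; TMM), with Benjamini-Hochberg adjustment over all genes tested and a threshold of 0.05; SE is the log2 fold change over the square root of F. The fitting code was tested on simulated data. Printed CPM use TMM over all 12 libraries; gene length is that in the tables. Annotation came from GENCODE v29. Alternatives were DESeq2 1.42.0, other scaling and filters, stricter thresholds and leaving out each library. All members may be named; of other sphingolipid genes, up to 3 per direction with the smallest p and an average log2 CPM of at least 1 were, except 1 gene that is not reported here. The members and lists were chosen with earlier results of these data known.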

Additional observations from a re-analysis of the deposited data

Results flagged for a closer look

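The change with the knockdown differed between the lines for 9 members by the interaction test of edgeR without S4, given as MDA-MB-468 minus HCC1187 on the log2 scale. That is 25% of the 36 members beside 25.6% of 16807 genes, a share near the background. Above 0 were SGMS2 (1.04), ACER3 (0.88) and SPTSSA (0.54), and below 0 CERK (-1.33), SPHK1 (-1.08), ACER2 (-1.03), SPHK2 (-0.81), SMPD1 (-0.66) and SGPL1 (-0.38). With all 12 libraries none passed, at adjusted p from 0.054 (SGMS2) to 0.34 (SPHK1). Leaving out 1 further library ended the call for SMPD1, SPHK1 and SPHK2 without S6 (adjusted p = 0.0939, 0.141 and 0.0662), for SPTSSA without S1, S3, S5, S8 or S10 (0.052 to 0.193), for ACER2 without S2, S5, S6, S7 or S10 (0.0525 to 0.11) and for SGPL1 without S2, S6, S9 or S10 (0.0533 to 0.215). SGMS2, ACER3 and CERK passed in each of these fits.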

How the results depend on the processing

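In HCC1187, 3 members were higher in a fit of all 12 libraries, where ASAH1, CERK and GALC did not pass, and 0 were higher and 0 lower at an absolute log2 fold change of at least 1. Leaving out each library gave 3 to 6 higher (3 without S9) and 6 to 10 lower. In MDA-MB-468, leaving out a library gave 0 to 3 higher and 0 to 12 lower, the highest of each without S4, and no filter on low counts gave 1 lower, CERK. Without S4, at an absolute log2 fold change of at least 1 the counts were 0 higher and 0 lower, DESeq2 called 5 lower and an adjusted p under 0.01 left 3 lower; leaving out a further library gave 2 to 3 higher and 3 to 14 lower. For the difference between the lines, higher in MDA-MB-468 were 1 member with DESeq2 and 1 with RLE scaling (SGMS2 in each) and 2 with no filter (SGMS2 and ACER3); lower were 1 with DESeq2 and 1 with library totals (SMPD1 in each) and 1 with no filter (CERK). Leaving out a library gave 0 to 3 higher and 0 to 6 lower, the highest without S4. Without S4, an adjusted p under 0.01 left 2 lower, and leaving out a further library gave 2 to 4 higher and 1 to 7 lower. In the controls, library totals gave 17 higher and 14 lower, with SGPL1 at -0.01, SGMS1 not passing and DEGS1 and ACER2 passing as lower, and leaving out a library gave 18 to 20 higher and 12 lower. The cause was not tested.

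No paired analysis was possible because the count columns carry no replicate number of the labels. Lane 1 alone was not run as a separate setting, since all fits use lane 1. The fits without S4 were chosen after seeing the data and rest on 2 knockdown libraries. Counts of a single lane limit the precision for genes under 10 CPM, such as SPHK1 and ACER2 in MDA-MB-468.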

Other observations

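The protein-coding neighbours of the members without reads give these summed lane 1 counts over the 3 controls of a line. Around GALC on chromosome 14, MDA-MB-468 had 0 reads for GPR65 and KCNK10, 1 for FLRT2 and 86 for SPATA7, where HCC1187 had 0, 3, 286 and 332. Around SMPDL3A on chromosome 6, MDA-MB-468 had 0 for FABP7 and CLVS2, 14 for PKIB and 4487 for SERINC1, where HCC1187 had 0, 72, 488 and 7928. Around SPTLC3 on chromosome 20, HCC1187 had 3520 reads for BTBD3, 24 for ISM1 and 172 for TASP1, where MDA-MB-468 had 1183, 3 and 344. The nearest neighbours of GALC and SMPDL3A, GPR65 and FABP7, had 0 reads in both lines. Of the neighbours read in the line without the member, SPATA7 lay 391259 bases from GALC. PKIB, with its 14 reads, lay 62676 bases from SMPDL3A, and SERINC1 317227 bases. ISM1 lay 52668 and TASP1 220289 bases from SPTLC3. STON2 near GALC had 11 reads in MDA-MB-468 and 511 in HCC1187, and NKAIN2 near SMPDL3A had 0 and 15. Why the members had no read was not tested.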
